A study of Mus musculus with 6 samples.

Results

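Hyaluronan is a long, unsulfated glycosaminoglycan of the extracellular matrix, and the genes described here make it, cut it, bind it or act as its receptors. Of 9 listed genes, 8 had a probe set whose platform annotation gave that symbol alone (Cd44, Hmmr, Has1, Has2, Has3, Hyal2, Vcan and Tnfaip6), out of 18182 genes measured. Hyal1, a lysosomal hyaluronidase gene, was not analysed here because both of its probe sets carry the symbols Hyal1 and Naa80. The 8 genes had 23 probe sets, and the probe set that was brightest on average over the 6 arrays stands for its gene.

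RNA came from Pax7-nGFP+ cells sorted from the limbs of Tg:Pax7-nGFP mouse embryos on a C57BL/6:DBA2 background, with 3 arrays at E17.5 and 3 at E12.5. All 6 arrays therefore share the transgene, in which nuclear GFP follows Pax7, a transcription factor of muscle stem and progenitor cells, and cells were taken by GFP and not by a surface marker. Values are log2 signals after GCRMA, a method that corrects background by probe sequence. Differences subtract the E12.5 mean from the E17.5 mean on that scale. Their standard error (SE) and p come from limma, with Benjamini-Hochberg adjustment over all genes, and a gene is called at an adjusted p under 0.05.

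Hyaluronan is polymerised at the plasma membrane by the synthases HAS1, HAS2 and HAS3 and extruded into the matrix, and HAS2 is the synthase that mouse embryos cannot do without. Hyaluronidases such as HYAL2 cut the chain, the proteoglycan versican (Vcan) and TSG-6 (Tnfaip6) organise it, and CD44 is its main surface receptor. RHAMM, the product of Hmmr, was described as a hyaluronan receptor and also sits on the mitotic spindle. The limb bud that migrating muscle precursors enter is rich in hyaluronan.

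The labelled cell type was checked against its markers. Of 10 measured myogenic markers none lay under 4 on every array, and the log2 of their summed signal was 14.92 to 15.09 at E17.5 and 13.996 to 14.47 at E12.5. Of these markers 4 rose, 1 fell (Pax3, -2.56; limma adjusted p = 0.0527 without E12.5 C) and 5 were not called, and the rises included those of Chrna1 (2.53) and Myog (1.86). Itga7, the muscle integrin gene, was at 2.17 to 2.31 on the E12.5 arrays and rose by 6.84, or 5.06 with the floor at 4. The E12.5 arrays also held strong signal of the embryonic globin gene Hbb-y. It was at 4.46, 3.23 and 3.32 at E17.5, against 14.34, 14.89 and 13.02 at E12.5. The log2 of the summed signal of 4 erythroid markers was 5.37 to 6.06 at E17.5 and 13.03 to 14.91 at E12.5. At E12.5 that sum was nearly all Hbb-y. Of the others, Hbb-bh1 was also called lower at E17.5 (-4.11), Hba-a1 did not exceed 2.47 on any array, and Alas2 was not called (0.69). E17.5 replicates A and B stood closer than any other pair of one age, with values that differed by an SD of 0.152 over 8758 bright genes (mean of 6 or more) and 0.412 to 0.551 elsewhere. They may not be independent samples, so results were also computed with their mean as 1 sample. E12.5 replicate B held the highest E12.5 value of all 10 fibroblast, all 7 endothelial and 6 of 7 cartilage markers, against 19.8% of all genes. In sorted bulk RNA, fewer cells of a type and less RNA per cell cannot be told apart.

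Of the 8 genes, Cd44 was higher at E17.5, Hyal2 was lower, and the other 6 were not called. Over all 18182 genes 8.21% were called higher and 8.73% lower, which makes 16.9% called in either direction, so 2 of 8 is a share that the background also comes near. The median difference was 0.0033 over the 8 genes and 0.0033 over all genes, while the median absolute difference was 0.312 over the 8 genes and 0.17 over all genes. The arrays of the ages did not overlap for 3 of the 8 genes (Cd44, Hyal2 and Has2), against 31.4% of all genes.

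**Figure D1:**
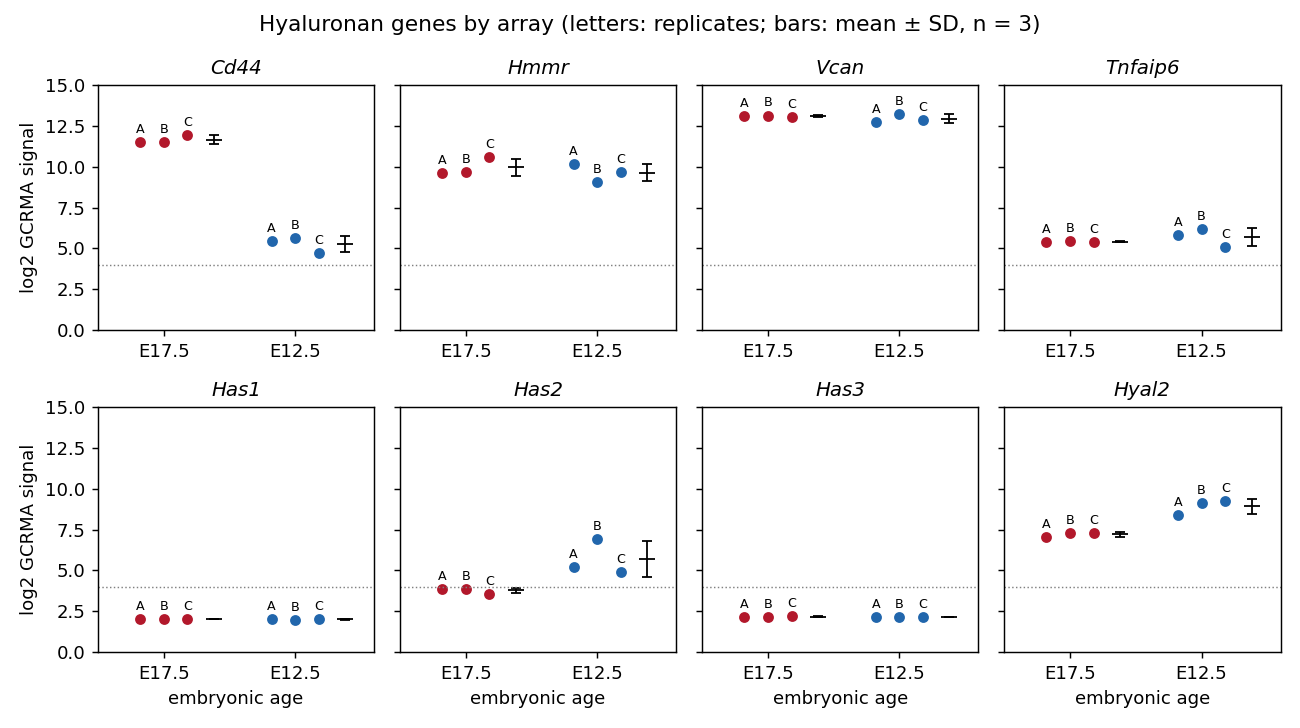
Log2 GCRMA signal of the 8 hyaluronan genes on each array, with E17.5 left and E12.5 right in every panel. Letters name the replicates, bars give the mean ± SD of 3 arrays, and the dotted line marks a signal of 4. Cd44 separates the ages upward and Hyal2 downward, Has2 lies just under the line at E17.5, and Has1 and Has3 lie near 2 on every array.

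Cd44, the cell surface receptor of hyaluronan, stood at 11.52, 11.50 and 11.95 in E17.5 replicates A, B and C, against 5.43, 5.63 and 4.72 in E12.5 replicates A, B and C. Every E17.5 array lay far above every E12.5 array, and no array of either age was under 4. The means were 11.66 ± 0.25 at E17.5 and 5.26 ± 0.48 at E12.5 (SD, n = 3 each). The difference was 6.40 (SE 0.27, limma adjusted p = 6.38e-05), an 84.3-fold rise with a 95% confidence interval of 54.1 to 131. It was the rank 8 rise among 18182 genes.

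The probe sets of Cd44 did not all move alike. A second bright probe set stood at 11.75, 11.85 and 11.70 at E17.5, against 3.61, 5.32 and 3.30 at E12.5. It rose by 7.69 (SE 0.51, limma adjusted p = 0.000504 over all probe sets), with E12.5 replicates A and C in the low range under 4. Another, dim probe set stood at 5.10, 5.73 and 5.34 at E17.5, against 2.98, 2.91 and 2.95 at E12.5, a difference of 2.44 (SE 0.20, limma adjusted p = 0.00103). The fourth lay between 2.37 and 2.53 on all 6 arrays and was not called. Because of these 2 dim probe sets, the mean of all 4 probe sets differed by 4.14 (limma adjusted p = 9.55e-05). Over all probe sets with 1 symbol, 5.75% were called higher and 5.59% lower.

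**Figure D2:**
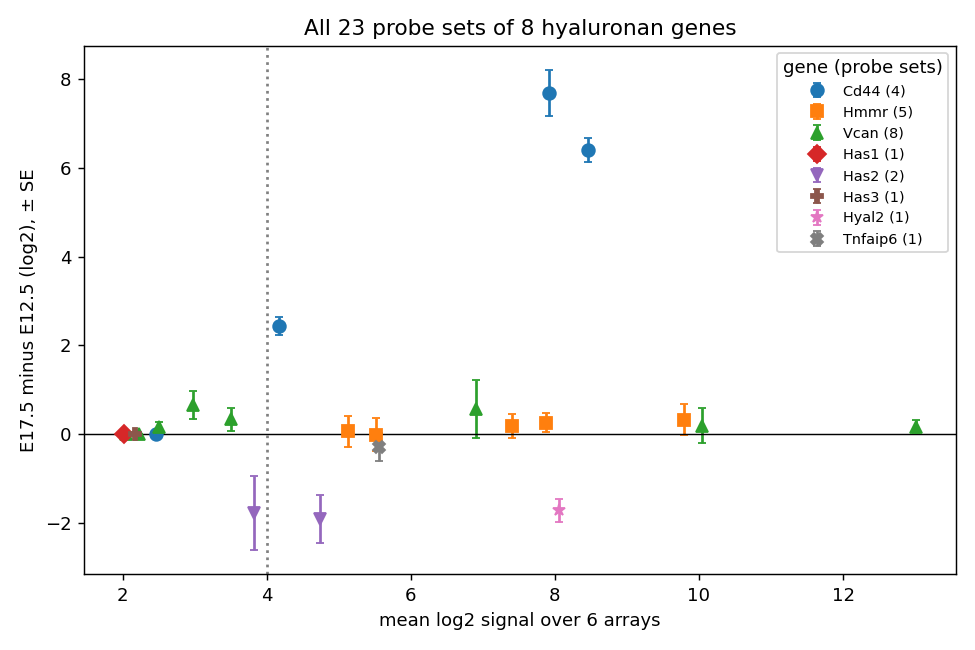
Difference E17.5 minus E12.5 (log2, ± SE) of all 23 probe sets of the 8 genes against their mean log2 signal over 6 arrays, with 1 symbol per gene and a dotted line at a mean of 4. The 3 Cd44 probe sets with a mean over 4 lie between 2.44 and 7.69, and both Has2 probe sets lie below 0. The Hmmr probe sets lie between -0.0067 and 0.33, and the Vcan probe sets between 0 and 0.66.

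The genes whose profile over the 6 arrays was most like that of Cd44 were Col15a1, a basement membrane collagen gene, Crip1, a LIM domain protein gene, and Asb5, a ubiquitin ligase adaptor gene. Among 8757 other genes with a mean of at least 6, their mean-centred profiles had root mean square differences of 0.193, 0.355 and 0.408 from that of Cd44. Their own differences between the ages were 6.42, 5.91 and 6.89. In E12.5 replicates A, B and C, Col15a1 (3.16, 3.32 and 2.40) and Asb5 (2.91, 2.53 and 2.72) were under 4. The sizes of their differences therefore rest on E12.5 values in the low range. This likeness rests mostly on the step between the ages, since only 6 arrays enter it.

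Hmmr was bright at both ages. It stood at 9.63, 9.69 and 10.57 in E17.5 replicates A, B and C, against 10.14, 9.07 and 9.69 in E12.5 replicates A, B and C. The ages overlapped, and the highest array at E17.5 was replicate C. The means were 9.96 ± 0.53 at E17.5 and 9.63 ± 0.54 at E12.5 (SD, n = 3 each), a difference of 0.33 (SE 0.35, limma adjusted p = 0.689). It was 0.027 without E17.5 replicate C, 0.048 without E12.5 replicate B and 0.58 without E12.5 replicate A, and was called in none of these. The 95% interval of the fold ran from 0.707 to 2.23, so a change of 2-fold in that direction is not excluded by these arrays. None of its 5 probe sets was called, and their differences ran from -0.0067 to 0.33.

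The promoter window of Hmmr is shown with motifs that are known from cell cycle genes expressed in G2 and mitosis, since its product sits on the mitotic spindle. The window runs from 250 bases before to 50 after the RefSeq start (GRCm38.p6, chr11:40733388-40733687, minus strand, printed 5′ to 3′). Capitals mark CCAAT boxes (CCAAT, here all read as ATTGG on the printed strand) and the CHR element (TTTGAA), both searched on both strands.
Hmmr: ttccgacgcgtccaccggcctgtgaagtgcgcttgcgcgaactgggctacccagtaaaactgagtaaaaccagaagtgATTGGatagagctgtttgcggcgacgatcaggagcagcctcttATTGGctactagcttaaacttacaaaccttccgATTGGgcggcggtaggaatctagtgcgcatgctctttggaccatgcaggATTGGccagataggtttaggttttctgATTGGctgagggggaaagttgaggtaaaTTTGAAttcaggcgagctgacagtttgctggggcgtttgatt
It held 5 CCAAT boxes and 1 CHR element, which do not overlap each other. Among 32851 RefSeq windows of the same length, 37.4% held at least 1 CCAAT and 17.9% at least 1 TTTGAA. The share with 5 CCAAT boxes, or with both motifs, was not computed. The window of Has1 also held 1 CCAAT and 1 TTTGAA. These are letter matches, and no binding was measured.

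Mitotic spindle and proliferation genes around Hmmr were mostly not called. Of 16 measured genes none rose, 1 fell and 15 were not called, with a median difference of -0.15. The one that fell was Plk1, the polo-like kinase of mitosis, at 10.39 ± 0.11 at E17.5 and 11.01 ± 0.26 at E12.5 (SD, n = 3 each; difference -0.62, SE 0.15, limma adjusted p = 0.0325). That call was lost without any single array except E12.5 A (limma adjusted p up to 0.12), and when the E17.5 pair A and B was averaged (0.0922). The log2 of the summed signal of the 16 genes was 15.59 to 15.63 at E17.5 and 15.68 to 15.84 at E12.5. E17.5 replicate C was the lowest E17.5 array for 10 of the 16, against 22.4% of all genes, and the highest for Hmmr. The 3 genes most like Hmmr over the arrays were Thap1, Zbtb21 and Cdc42bpa, at root mean square differences of 0.0484, 0.0618 and 0.116, and none of them was called.

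The synthase genes gave signal at one locus only. Has1 lay at 2.02 or less at E17.5 and at 2.03 or less at E12.5, and Has3 between 2.16 and 2.19 at E17.5 and between 2.15 and 2.17 at E12.5. Both are in the dense low range of GCRMA values on every array, where 42.8% of genes had their mean under 4. Their differences of 0 (limma adjusted p = 1) and 0.0067 (limma adjusted p = 0.896) therefore carry no information on transcripts below detection.

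Has2 stood at 3.87, 3.87 and 3.59 in E17.5 replicates A, B and C, against 5.22, 6.94 and 4.91 in E12.5 replicates A, B and C. All E17.5 arrays lay under 4 and under all E12.5 arrays, and 17.2% of all genes had such an order. The means were 3.78 ± 0.16 at E17.5 and 5.69 ± 1.1 at E12.5 (SD, n = 3 each). The difference of -1.91 (SE 0.52) missed the threshold (limma adjusted p = 0.0515), with a 95% interval of -3.16 to -0.66. The second probe set of Has2 stood at 3.06, 3.27 and 2.50 at E17.5, against 3.36, 6.71 and 4.08 at E12.5. It did not overlap between the ages either, and was not called (-1.77, SE 0.84, limma adjusted p = 0.282).

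E12.5 replicate B was the highest array on both Has2 probe sets. Without it the difference shrank to -1.29 and was called (limma adjusted p = 0.0116), and without E12.5 replicate C it was -2.30 and called (0.0429). After averaging E17.5 A and B it was -1.96 and not called (limma adjusted p = 0.125), and with values under 4 raised to 4 it was -1.69 (0.146). Over all 17 alternatives it stayed negative, from -2.30 to -1.16, with adjusted p from 0.00595 to 0.146, and 5 of them called it.

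Fibroblast and cartilage marker medians, like Has2, were highest in replicate B among the E12.5 arrays. The order of E12.5 replicates A and C differed between the Has2 probe sets, and between the fibroblast and cartilage medians. The median of 10 fibroblast markers was 8.24, 8.36 and 6.14 in E17.5 replicates A, B and C, against 6.35, 8.42 and 5.54 in E12.5 replicates A, B and C. The median of 7 cartilage markers was 6.79, 6.95 and 4.27 at E17.5, against 7.25, 9.31 and 7.43 at E12.5. The cartilage medians were thus lower on every E17.5 array, as was Has2, while the fibroblast medians overlapped. The log2 of the summed fibroblast signal ran from 14.66 to 15.02 at E17.5 and from 13.26 to 14.74 at E12.5, and that of cartilage from 8.45 to 10.33 at E17.5 and from 11.84 to 12.74 at E12.5. One fibroblast marker, Thy1, was under 4 on every array, and no cartilage marker was. Of the fibroblast markers 2 rose (Dpt by 9.04, or 7.14 with the floor at 4, and Col1a1 by 2.76) and 1 fell (Pdgfra, -3.68). Of the cartilage markers none rose and 1 fell (Col9a1, -4.02). Without 1 array, 1 to 5 fibroblast markers were called higher and 0 to 1 lower, and 0 to 1 cartilage markers higher and 0 to 1 lower. The call of Col9a1 was lost without any one E12.5 array, that of Col1a1 without E12.5 C, E17.5 A or E17.5 B, and that of Pdgfra without E12.5 A, E12.5 B, E17.5 B or E17.5 C. Of 4 tendon markers Tnmd rose by 4.38 and Mkx fell by 3.41, and the call of Tnmd was lost after averaging E17.5 A and B (limma adjusted p = 0.0561) and without E12.5 C, E17.5 A or E17.5 B. The part of these cells in the level of Has2 was not tested.

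**Figure D3:**
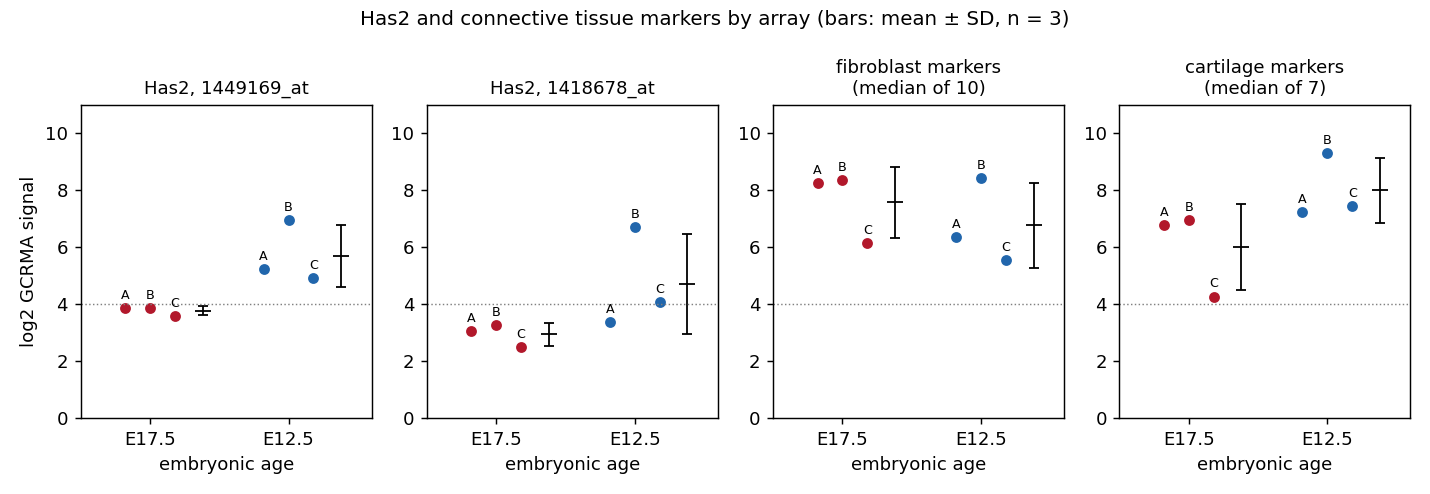
Log2 signal of both Has2 probe sets and the median log2 signal of 10 fibroblast and 7 cartilage markers on each array, with E17.5 left and E12.5 right in every panel. Letters name replicates, bars are the mean ± SD of 3 arrays, and the dotted line marks 4. E12.5 replicate B is the highest E12.5 array in all 4 panels. All E17.5 values lie below all E12.5 values in both Has2 panels and in the cartilage panel, and the ages overlap in the fibroblast panel.

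Genes that supply the sugar precursors of hyaluronan were mostly not called. Of 10 measured genes 1 rose, 2 fell and 7 were not called, with a median difference of -0.027. Hk2, the hexokinase 2 gene at the entry of glucose use, fell to 9.99 ± 0.08 at E17.5, against 11.22 ± 0.20 at E12.5 (SD, n = 3 each; difference -1.24, SE 0.13, limma adjusted p = 0.00116). Gfpt2, of the hexosamine pathway, was at 5.76 ± 0.52 at E17.5 and 7.08 ± 0.32 at E12.5 (-1.33, limma adjusted p = 0.0378). Uap1, which makes UDP-N-acetylglucosamine, was at 10.46 ± 0.06 at E17.5 and 9.91 ± 0.22 at E12.5 (0.55, limma adjusted p = 0.0324). The calls of Gfpt2 and Uap1 were lost when E17.5 A and B were averaged (limma adjusted p = 0.129 for Gfpt2 and 0.103 for Uap1). Gfpt2 also lost its call without any one array but E17.5 C, and Uap1 without any one array but E12.5 A. Ugdh, the dehydrogenase gene for UDP-glucuronate, was not called, at 10.56, 10.75 and 10.61 at E17.5 against 10.72, 10.90 and 10.46 at E12.5.

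Hyal2, which encodes a hyaluronidase anchored to the cell surface, stood at 7.02, 7.27 and 7.32 in E17.5 replicates A, B and C, against 8.39, 9.10 and 9.26 in E12.5 replicates A, B and C. Every E17.5 array lay below every E12.5 array, and all 6 were well above 4. The means were 7.20 ± 0.16 at E17.5 and 8.92 ± 0.46 at E12.5 (SD, n = 3 each). The difference was -1.71 (SE 0.25, limma adjusted p = 0.00519), which is 3.28-fold lower. Its fold against E12.5 had a 95% interval of 0.201 to 0.463. It has 1 probe set, so no second one of this gene could be compared. Some markers of other cell types were also lower at E17.5, where 8.73% of all genes were called lower. Of 4 erythroid markers 2 fell (Hbb-y, -10.41, and Hbb-bh1, -4.11), of 6 epidermis markers 2 fell (Epcam, -4.1, and Trp63, -2.39), and of 3 Schwann cell markers 1 fell (Erbb3, -2.80). None of these 3 lists held a rise, and their other markers were not called (2 erythroid, 4 epidermis and 2 Schwann cell). The call of Hbb-bh1 was lost after averaging E17.5 A and B (limma adjusted p = 0.0889) and without E12.5 A or any one E17.5 array. As the mean of their probe sets Epcam, Trp63 and Erbb3 differed by -1.75, -0.60 and -1.44. The log2 of the summed epidermis signal was 7.31 to 7.45 at E17.5 and 8.63 to 9.60 at E12.5, and that of the Schwann cell list was 9.66 to 10.03 at E17.5 and 12.31 to 12.93 at E12.5. The defining Schwann cell genes Sox10 and Foxd3 were under 4 on every array, so the summed signal of that list was nearly all Erbb3. The part of these cells in the fall of Hyal2 was not tested. The most similar profiles were those of Cand2, Lrrn3 and Mdk, the midkine growth factor gene, at root mean square differences of 0.145, 0.152 and 0.159, with differences of -1.59, -1.87 and -1.66.

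Among the other genes of hyaluronan breakdown, Cemip2, a membrane protein gene tied to hyaluronan breakdown at the cell surface, stood at 7.31, 7.40 and 6.49 at E17.5, against 10.29, 10.88 and 10.64 at E12.5. All E17.5 arrays lay below all E12.5 arrays, and the gene fell by 3.54 (SE 0.28, limma adjusted p = 0.000426; difference -2.42 as the mean of its probe sets). Its relative Cemip was called higher (0.35, limma adjusted p = 0.0113), but no array exceeded 3.16, and with values under 4 raised to 4 the difference was 0. Gusb and Hexa, which encode lysosomal enzymes that trim hyaluronan fragments, were not called (0.13 and 0.22). Of 9 measured genes in this list 1 rose, 1 fell and 7 were not called, and 6 lay under 4 on every array.

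Vcan, the gene of the large hyaluronan-binding chondroitin sulfate proteoglycan versican, was bright at both ages. It stood at 13.11, 13.13 and 13.05 at E17.5, against 12.72, 13.23 and 12.83 in E12.5 replicates A, B and C. The ages overlapped because of E12.5 replicate B. The means were 13.10 ± 0.04 at E17.5 and 12.93 ± 0.27 at E12.5 (SD, n = 3 each), a difference of 0.17 (SE 0.14, limma adjusted p = 0.566) with a 95% interval of -0.17 to 0.51. Without 1 array it ran from 0.067 (without E12.5 A) to 0.32 (without E12.5 B), not called. None of its 8 probe sets was called, and 5 of them had a mean under 4. It was called only with array weights (0.28, limma adjusted p = 0.00713), a fit that gave E17.5 A, E12.5 C and E17.5 B weights of 4.97, 4.80 and 3.24 and the other arrays 0.14 to 0.386. Rnf130, Yipf5 and Arcn1 had the most similar profiles, at root mean square differences of 0.0293, 0.0534 and 0.0534, and none of them was called.

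Genes of versican cleavage were mostly higher at E17.5, and of the genes of its matrix partners only Tnc was called. Of 12 measured genes 7 rose, none fell and 5 were not called, with a median difference of 1.58, against 0.0033 over all genes. Of all genes 8.21% were called higher. Adamts1, a protease gene whose product cuts versican, stood at 11.53, 11.63 and 11.77 at E17.5, against 9.12, 9.24 and 8.81 at E12.5 (difference 2.59, SE 0.14, limma adjusted p = 0.000127). Adamts8, of the same protease family, stood at 8.09, 8.03 and 8.03 at E17.5, against 3.44, 3.39 and 3.60 at E12.5, a difference of 4.57, or 4.05 with the floor at 4. Tnc, the tenascin-C gene, was at 11.14 ± 0.32 at E17.5 and 8.59 ± 0.26 at E12.5 (SD, n = 3 each; difference 2.54, SE 0.20, limma adjusted p = 0.000445). As the mean of its probe sets Tnc differed by 1.93. The other partner genes Fbln1 (-0.65), Fbln2 (0.97), Fbn2 (-0.12) and Tnr (0.01) were not called, nor was the protease gene Adamts15 (0.25). After averaging E17.5 A and B, 6 genes of this list were called higher and none lower.

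The enzymes that build the chondroitin sulfate chains of versican and other proteoglycans were mixed. Of 14 measured genes 3 rose, 1 fell and 10 were not called, with a median of 0.11. Csgalnact1, which starts the chain, stood at 9.68, 9.69 and 10.12 at E17.5, against 4.30, 5.09 and 4.47 at E12.5, a rise of 5.21 (SE 0.27, limma adjusted p = 0.000105). Its paralogue Csgalnact2 and the chain polymerase gene Chsy1 rose by 1.27 and 0.54. Chst11, a chondroitin 4-sulfotransferase gene, fell by 1.77 (SE 0.24, limma adjusted p = 0.00402), with a difference of -0.92 as the mean of its probe sets.

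Tnfaip6, which encodes TSG-6, a secreted protein that transfers heavy chains onto hyaluronan, stood at 5.41, 5.44 and 5.38 in E17.5 replicates A, B and C, against 5.80, 6.21 and 5.10 in E12.5 replicates A, B and C. The ages overlapped, and the E12.5 arrays spread more than the E17.5 arrays. The means were 5.41 ± 0.03 at E17.5 and 5.70 ± 0.56 at E12.5 (SD, n = 3 each), a difference of -0.29 (SE 0.32, limma adjusted p = 0.708). Its 95% interval ran from -1.06 to 0.48. Without 1 array it ran from -0.60 (without E12.5 C) to -0.04 (without E12.5 B), not called. With array weights it was 0.22 (limma adjusted p = 0.313), so its direction is not settled.

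Tnfaip6 is known as a gene induced by inflammatory signals. A list of dissociation and inflammation response genes was in part higher at E17.5. Of 19 measured genes of that list 12 rose, none fell and 7 were not called, with a median of 2.63. Those not called were the inflammation genes Ptgs2, Il6, Ccl2, Il1r1 and Tnfrsf1a, and also Egr1 and Ier2. Over all genes 8.21% were called higher, and the median difference was 0.0033. The log2 of their summed signal was 15.938 to 16.38 at E17.5 and 13.01 to 14.15 at E12.5, and 3 genes were under 4 on every array (Ptgs2, Il6 and Ccl2). Fosb, an AP-1 subunit gene, rose by 8.08, the chemokine gene Cxcl1 by 6.44 and the stress factor gene Atf3 by 5.95. All 3 were under 4 on every E12.5 array, and with the floor at 4 the differences were 6.34 for Fosb, 5.66 for Cxcl1 and 4.85 for Atf3. Their part in the values of Cd44 and Tnfaip6 was not tested.

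The promoter windows of Tnfaip6 and Cd44 are shown with AP-1 sites marked, since genes of AP-1 subunits rose between these ages. They run from 250 bases before to 50 after the RefSeq start (GRCm38.p6, chr2:52037863-52038162, plus strand, and chr2:102901616-102901915, minus strand), printed 5′ to 3′. Capitals mark the AP-1 site (TGANTCA, searched on both strands).
Tnfaip6: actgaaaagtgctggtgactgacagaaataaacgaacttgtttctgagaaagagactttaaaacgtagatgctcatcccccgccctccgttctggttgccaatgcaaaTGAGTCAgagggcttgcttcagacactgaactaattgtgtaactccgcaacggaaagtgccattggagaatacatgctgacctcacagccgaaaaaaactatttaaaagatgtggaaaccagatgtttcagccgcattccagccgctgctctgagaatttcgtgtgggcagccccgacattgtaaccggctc
Cd44: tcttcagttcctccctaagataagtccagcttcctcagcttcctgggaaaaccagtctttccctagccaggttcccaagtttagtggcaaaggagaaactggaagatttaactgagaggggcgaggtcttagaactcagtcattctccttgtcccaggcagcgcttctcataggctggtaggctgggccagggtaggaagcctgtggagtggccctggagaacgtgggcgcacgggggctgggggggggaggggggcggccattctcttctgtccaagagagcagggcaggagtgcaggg
The Tnfaip6 window held 1 such site, and 7.81% of all 32851 windows held at least 1. The Cd44 window held none, which says only that these letters are not in this window. No binding was measured, and a part of AP-1 in the values of either gene was not tested. Windows were listed for 7 of the 9 genes.

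Other hyaluronan receptors were mostly in the low range. Of 7 measured receptor genes 2 were higher and 5 not called, and 3 lay under 4 on every array. Susd5, which encodes a membrane protein with a hyaluronan-binding link domain, stood at 8.93, 8.88 and 8.82 at E17.5, against 3.63, 4.40 and 3.53 at E12.5. It rose by 5.02 (SE 0.29, limma adjusted p = 0.00014), or 4.74 with the floor at 4. Tlr4, an innate immune receptor gene whose product is known to respond to hyaluronan fragments, stood at 5.70, 6.03 and 5.78 at E17.5, against 2.71, 2.27 and 3.10 at E12.5. All its E12.5 arrays were in the low range, so its difference of 3.14 (limma adjusted p = 0.000406) became 1.84 with the floor at 4, and it was 0.93 as the mean of its probe sets. Lyve1, the lymphatic receptor gene, did not exceed 3.53 on any array.

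Among other genes of hyaluronan-binding matrix proteins, 1 of 15 rose, 1 fell and 13 were not called, and 11 lay under 4 on every array. Itih5, an inter-alpha-trypsin inhibitor heavy chain gene, stood at 11.25, 11.24 and 11.09 at E17.5, against 6.90, 6.56 and 6.76 at E12.5. It rose by 4.45 (SE 0.13, limma adjusted p = 2.65e-05), and the ages were far apart. Ptx3, whose pentraxin product binds TSG-6 in hyaluronan matrix, stood at 5.10, 5.26 and 3.44 at E17.5, against 8.22, 7.25 and 7.46 at E12.5. It fell by 3.04 (SE 0.54, limma adjusted p = 0.0107, difference -2.11 as the mean of its probe sets), with E17.5 replicate C the lowest. Hapln1, a link protein gene, overlapped between the ages and was not called.

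**Figure D4:**
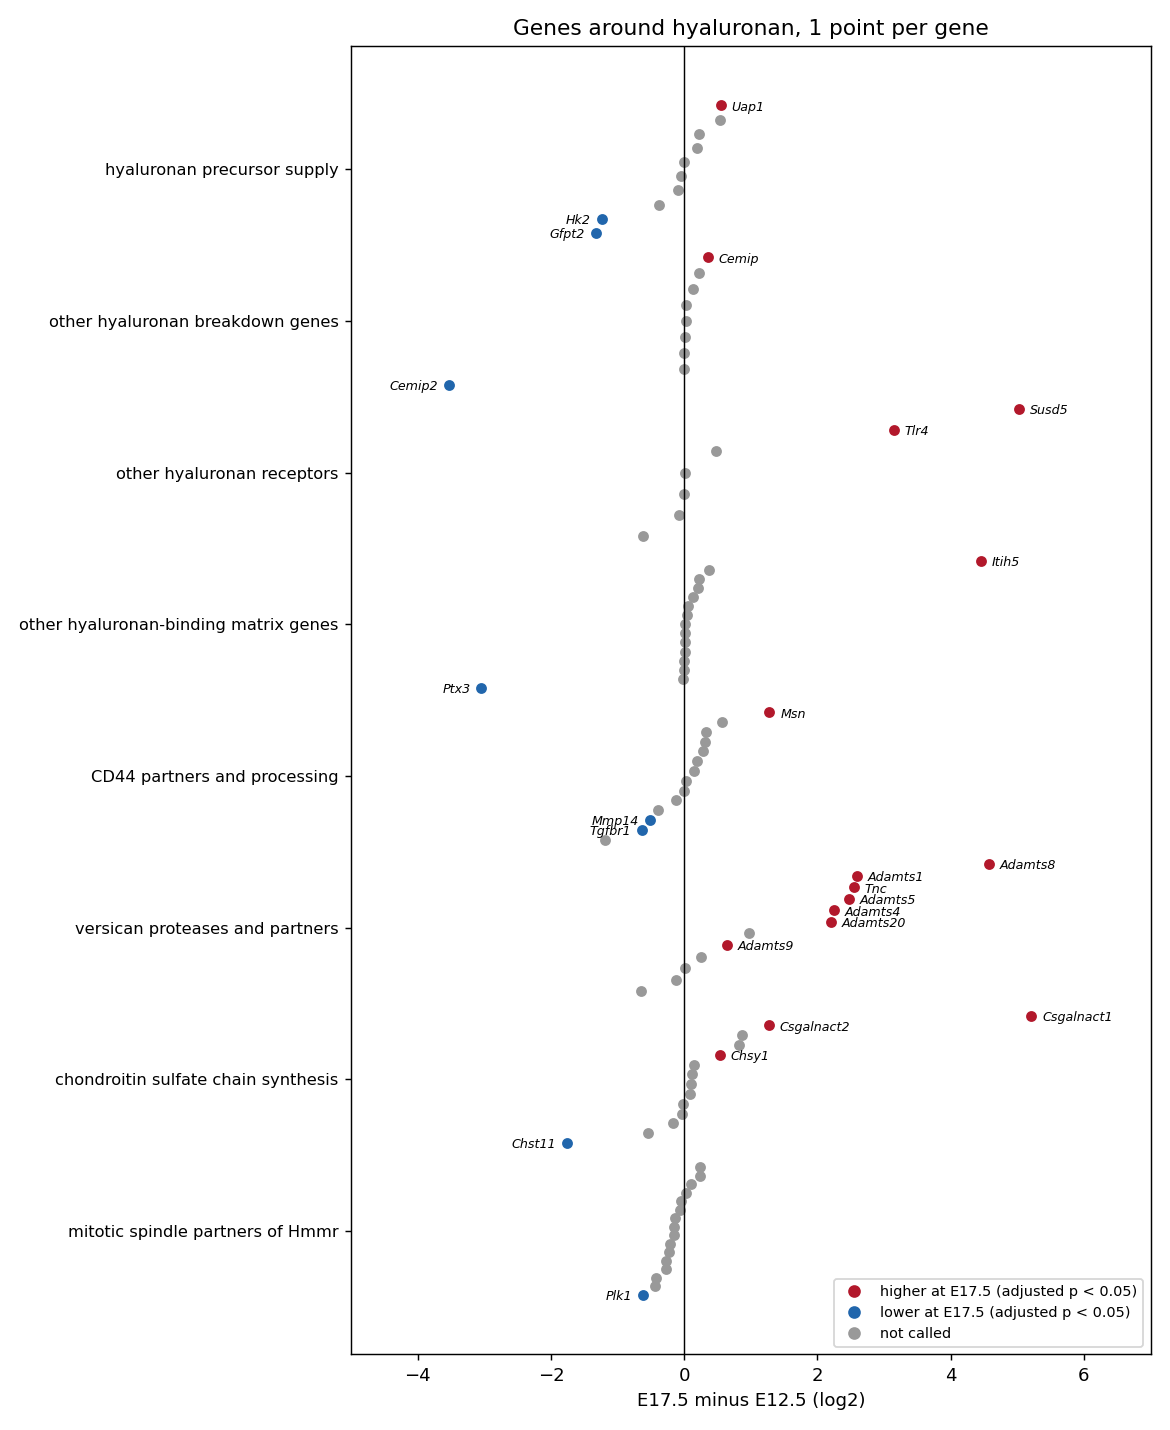
Difference E17.5 minus E12.5 (log2) of each measured gene in 8 lists around hyaluronan, with 1 point per gene sorted within its list. Red points were called higher at E17.5, blue points lower and grey points were not called. The versican list holds 7 called rises and no fall, and outside that list the 3 largest rises are those of Csgalnact1, Susd5 and Itih5 and the 2 largest falls those of Cemip2 and Ptx3.

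Partners of CD44 inside and outside the cell changed less than Cd44. Of 14 measured genes 1 rose, 2 fell and 11 were not called, with a median of 0.08. Msn, the gene of moesin, which links CD44 to actin, stood at 10.23, 10.37 and 10.42 at E17.5, against 9.04, 9.09 and 9.05 at E12.5 (difference 1.28, SE 0.10, limma adjusted p = 0.000437, and 0.84 as the mean of its probe sets). The related genes Ezr and Rdx were not called (0.19 and 0.14). Tgfbr1, a TGF-beta receptor gene, fell by 0.63 (limma adjusted p = 0.00257; difference -0.27 and adjusted p = 0.253 as the mean of its probe sets). Mmp14, whose membrane protease product sheds CD44, differed by -0.51 (limma adjusted p = 0.0455), and by -0.09 as the mean of its probe sets (limma adjusted p = 0.874). Its call was lost after averaging E17.5 A and B (limma adjusted p = 0.119) and without any one array but E12.5 A.

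Leukocytes also express Cd44. Of 8 measured macrophage and leukocyte markers 4 lay under 4 on every array, among them Ptprc, the pan-leukocyte gene, which did not exceed 2.74. The log2 of their summed signal was 7.52 to 7.70 at E17.5 and 6.31 to 7.40 at E12.5. Cd68, a lysosomal gene of macrophages, stood at 6.87, 6.67 and 6.51 at E17.5, against 3.14, 4.49 and 3.45 at E12.5, and rose by 2.99 (SE 0.38, limma adjusted p = 0.00281). Lyz2 was called higher by 1.06, while Csf1r, which reached 6.42 in E12.5 replicate B, and Adgre1, at 4.45 to 5.12, were not called. The call of Lyz2 was lost when E17.5 A and B were averaged (limma adjusted p = 0.108) and without any one array but E17.5 C. Of 7 endothelial markers 1 rose (Tek by 4.88), none fell and 6 were not called. The log2 of their summed signal was 10.13 to 10.42 at E17.5 and 6.65 to 8.04 at E12.5. At E17.5 that sum was nearly all Tek, at 10.12, 10.33 and 10.08, while the median difference of the endothelial list was -0.35. Kdr and Esam exceeded 4 on every array but E17.5 C, and Pecam1 did not exceed 2.44 on any array. Of the 10 fibroblast markers given with Has2, 2 rose (Dpt and Col1a1), 1 fell and 7 were not called. The part of any of these cell types in the rise of Cd44 was not tested.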

How the data were processed

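Total RNA of sorted limb cells was amplified from its 3′ end, labelled with biotin and hybridised to Affymetrix arrays, per the labels' protocols. For each probe set the authors deposited a log2 signal made with GCRMA, per the submitters' processing notes. The GCRMA version is not given in the sources, and background correction and normalization between arrays were already done. Values ran from 0.96 to 15.94, and signals under 4 hold little specific signal. The number of arrays limits the precision.

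Of 44994 probe sets 34909 had 1 symbol in the platform annotation (34705 matched by entrez ID to the gene list of GRCm38.p6), the 931 with several were not used, and another 9154 carry no name here. The test was limma 3.58.1 (R 4.3.3; lmFit, then eBayes with an intensity trend) on 18182 genes, and for probe sets on all 34909, with no filter. Of 187 list entries, 175 were counted.

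Genes, lists and tests were chosen with earlier results of these data known. Named list genes are the 3 largest called rises and falls of a list (2 brightest genes without calls) and the 3 most similar profiles per bright member. Some further list genes are named after their values were seen, to describe a list. The labels call the replicates biological. Alternatives were other variance priors, array weights, probe set choices, a filter and a floor at 4, further scaling, the replicate letter as a block, averaging E17.5 A and B, and leaving out each array. Promoter windows are RefSeq sequences. Figures used matplotlib 3.10.9.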

Additional observations from a re-analysis of the deposited data

How the results depend on the processing

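Cd44 stayed called higher (4.14 to 6.71) and Hyal2 called lower (-2.07 to -1.54) under all 17 alternatives. The count of the 8 genes called higher was 1 in the main analysis and 2 with array weights, where Vcan was added. The count called lower was 1, and 2 with robust eBayes, with array weights and over the 10405 genes with a mean of at least 4, where Has2 was added, and 1 to 2 without 1 array. Small uncalled differences changed sign with array weights for Hmmr (-0.026), Has3 (-0.0086) and Tnfaip6 (0.22), and with arrays centred on bright genes for Has3 (-0.0067), and the cause was not tested. Over all genes 1493 were higher and 1587 lower, against 3205 and 5218 with array weights, 1021 and 825 after averaging E17.5 A and B, and 969 to 1553 and 770 to 1776 without 1 array. With the replicate letter as a replicate block 1091 were higher and 1014 lower. Arrays of 1 letter do not pair (correlations of deviations -0.38, 0.25 and -0.07), 1 of 3 E17.5 arrays correlated best with its own letter, and the block changed no call among the 8 genes. Of the recomputed differences of named list genes, 619 stayed on their side of the threshold and 77 fell short of it. Signals under 4 limit Has1, Has3 and the E17.5 level of Has2.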
